A study of Mus musculus with 6 samples.

Results

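The transcripts described here are 36 genes of the NF-kB system in aged mouse haematopoietic stem and progenitor cells (HSPCs). The cells came from bone marrow of C57BL/6 animals of wild-type genotype and had been cultured before RNA was extracted. The list was made by gene symbol and covers the subunits, their inhibitors, the kinases and receptors above them, and genes that NF-kB itself induces. All 36 symbols were found among the 54532 genes of the deposited count table. All 36 also passed the filter on low counts that left 14706 genes for testing, and the lowest single count of any of them was 32. Of the 6 libraries, 3 were of vehicle-treated cells and 3 of cells given uridine, a pyrimidine nucleoside. The labels give no dose, duration, exact age, sorting markers or number of animals per library. They also do not say whether the replicates were separate cultures or mice, so the spread behind every p-value is that among these libraries and could be technical. The comparison asks how the level of each transcript differed between aged HSPCs with and without uridine.

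NF-kB is a family of dimeric transcription factors built from the products of Nfkb1, Nfkb2, Rel, Rela and Relb. In resting cells the dimers are held in the cytoplasm by IkB proteins. Signals from TNF receptors, interleukin-1 receptors and Toll-like receptors pass through TRAF adaptors and ubiquitin chains to the TAK1 and IkB kinases, which mark IkB for destruction and free the dimers. A separate, non-canonical branch runs through the kinase NIK (Map3k14) and the processing of the Nfkb2 product p100. Several targets of the pathway are its own brakes, among them Nfkbia and Tnfaip3, so that these transcripts are often read as a record of pathway activity. In blood-forming cells NF-kB serves inflammatory and myeloid programmes and is needed at a basal level in stem cells.

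In uridine-treated cells 20 of the 36 transcripts fell (55.6%) and 0 rose by edgeR's quasi-likelihood test, at an adjusted p under 0.05 over all genes tested. Among all 14706 genes 10.1% fell and 7.18% rose, so that 17.3% changed in either direction. At an unadjusted p under 0.05 the number of these genes higher with uridine was 0, and with DESeq2's Wald test it was 0 at the adjusted threshold. By role, falls were counted in 4 of 5 DNA-binding subunits, 4 of 6 members of the IkB family, both TNF receptors, 5 of 7 negative regulators and 1 of 2 other induced genes. They were counted in 1 of 5 IkB kinases and relatives, 2 of 4 upstream kinases and adaptors and 1 of 5 genes of the TRAF and cIAP complex. Median log2 changes were -0.30 for the subunits, -0.30 for the IkB family, -0.28 for the TNF receptors, -0.27 for the negative regulators, -0.16 for the upstream kinases, -0.09 for the TRAF and cIAP genes and 0.01 for the IkB kinases. The core IkB kinase genes Chuk, Ikbkb and Ikbkg and the adaptor gene Tab2 were not called, with estimates close to 0. Most falls were of less than 1.5-fold: the median among the 20 was 20.6%, 4 were of 1.5-fold or more, and 2, in Tnip3 and Bcl3, were of 2-fold or more. Among all 14706 genes 195 fell by 2-fold or more, and the median log2 change of all genes that fell was -0.24. Fold changes are given below as log2 values of uridine over vehicle ± SE.

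The median log2 change of the 36 genes was -0.22, against 0.01 over all genes tested. Every uridine library lay below every vehicle library for 23 of the 36 (63.9%), against 16.1% of all genes tested. For 0 of the 36 did every uridine library lie above every vehicle library, against 14.7% of all genes. The log2 estimate was below 0 for 29 of the 36 (80.6%), against 48.6% of all genes. The genes were chosen with earlier results of these data known, so these shares describe the list and are not a test of it.

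**Figure D1:**
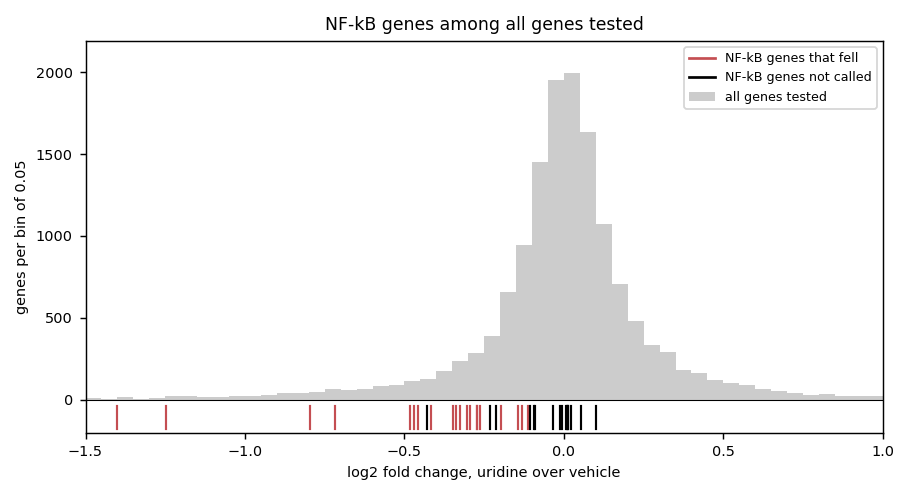
Histogram of log2 fold changes (uridine over vehicle; x axis) of the genes tested, as the number of genes per bin (y axis), with the 36 NF-kB genes as short lines under it, red for those that fell and black for those not called. The NF-kB genes run from -1.40 to 0.10 with a median of -0.22, and 186 of the 14706 genes tested lie outside the plotted range.

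Library totals ran from 16109265 to 18638627 counts, and 3 counts, taken as the limit of detection, correspond to 0.161 to 0.186 CPM (read counts scaled to library size, with TMM factors); this limit covers counting error only. All 12 stem and progenitor markers were measured, with summed levels of 1709 to 1743 CPM in vehicle and 1767 to 1799 CPM in uridine libraries, and they did not move together: 6 rose and 3 fell, with log2 changes from -2.10 to 0.37 and a median of 0.03. Cd34 was not called, at 620.1 ± 15.0 and 617.8 ± 9.63 CPM (SD, n = 3), and Ly6a, the gene of Sca-1, fell by 76.7%, the means being 15.0 ± 0.838 CPM with vehicle and 3.50 ± 0.659 CPM with uridine (adjusted p = 6.5e-20). Markers of monocytes and of granulocytic cells moved with the NF-kB genes. Of 13 measured monocyte and macrophage markers 12 fell, and the summed level of the list of 14 was 583 to 603 CPM in vehicle and 243 to 252 CPM in uridine libraries, with none of the markers at 0. Of 15 measured neutrophil and granule markers 13 fell and 1 rose. The summed level of the list of 16 was 3039 to 3115 CPM in vehicle and 1624 to 1669 CPM in uridine libraries. Most of that sum was Mpo (1945 CPM in vehicle and 1044 CPM in uridine libraries), a primary-granule gene that myeloid progenitors also express. Ly6g, a marker of mature neutrophils, had 1 count in 1 vehicle library and 0 in the other libraries. The other 15 markers, among them Ltf, Camp and Mmp8, were measured, the lowest vehicle mean being 1.83 CPM. For each list the exact two-sided permutation p over libraries was 0.1, the smallest that 3 against 3 can give. The part of these cells in the falls of NF-kB genes was not tested. In bulk libraries fewer cells of a type and less RNA per cell cannot be told apart.

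Binding sites of NF-kB in DNA are known as kappaB sites, and the proximal promoters of several of these genes carry them. RefSeq (GRCm38.p6) promoter windows of 300 bases, from 250 before to 50 after each annotated start, were found for 31 of the 36 genes, 41 windows in all. The genes without a window in the table were Nfkb1, Relb, Nfkbiz, Ikbkb and Map3k8. The kappaB consensus, searched on both strands, occurred in a window of 12 of the 31 genes (38.7%), against 5.14% of the 27025 genes in the table. Counted by window, it occurred in 34.1% of the 41 and in 4.51% of all 32851. The spelled motif GGAAANTCC, which overlaps many consensus matches, occurred in 7 of the 31 genes (22.6%) against 1.45%. For comparison, the AP-1 motif TGANTCA occurred in 5 genes (16.1%) against 8.97% and TATAAA in 4 (12.9%) against 15.7%. Of the 16 genes with a window that fell with uridine, 10 held a consensus match. Of the 15 that were not called, 2 did, Cyld and Nfkbie. In the same order the numbers were 5 and 2 for GGAAANTCC, 3 and 2 for TGANTCA and 4 and 0 for TATAAA. Whether any motif goes with a fall was not tested. A match is a stretch of letters in the window and not a measured binding site, and many of the genes are on the list because they are known to be induced by NF-kB.

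The following stretches end at the base before the annotated start. They are shown for 7 genes that fell and for Cyld, which was not called and whose window also holds a match. Not shown are Nfkbie (consensus) and Tnfaip2 (GGAAANTCC), which were not called and hold matches. Also not shown are Bcl3, Map3k7, Nfkbid and Traf3, which fell and hold consensus matches. The stretches are written 5′ to 3′ on the strand of the gene, with matches to either kappaB motif in capitals. Positions in GRCm38.p6 are chr12:55492648-55492837 (minus strand) for Nfkbia, chr10:19015411-19015560 (minus) for Tnfaip3, chr11:54962941-54963090 (minus) for Tnip1 and chr6:65590248-65590397 (plus) for Tnip3. They are chr19:46304587-46304736 (plus) for Nfkb2, chr11:23770970-23771119 (minus) for Rel, chr9:21015777-21015939 (plus) for Icam1 and chr8:88696863-88697027 (plus) for Cyld.
Nfkbia: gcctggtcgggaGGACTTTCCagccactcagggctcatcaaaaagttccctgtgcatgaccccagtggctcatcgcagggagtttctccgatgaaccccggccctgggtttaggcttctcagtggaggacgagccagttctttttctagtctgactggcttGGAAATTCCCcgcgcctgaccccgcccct
Tnfaip3: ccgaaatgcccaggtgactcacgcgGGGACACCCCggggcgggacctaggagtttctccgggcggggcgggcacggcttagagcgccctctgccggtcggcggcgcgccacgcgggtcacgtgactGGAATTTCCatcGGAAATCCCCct
Tnip1: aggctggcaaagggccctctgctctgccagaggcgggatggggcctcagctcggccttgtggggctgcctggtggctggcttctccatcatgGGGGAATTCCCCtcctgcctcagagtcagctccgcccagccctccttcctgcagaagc
Tnip3: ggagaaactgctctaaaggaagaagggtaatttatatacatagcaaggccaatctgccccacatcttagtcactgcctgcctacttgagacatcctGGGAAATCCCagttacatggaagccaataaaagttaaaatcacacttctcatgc
Nfkb2: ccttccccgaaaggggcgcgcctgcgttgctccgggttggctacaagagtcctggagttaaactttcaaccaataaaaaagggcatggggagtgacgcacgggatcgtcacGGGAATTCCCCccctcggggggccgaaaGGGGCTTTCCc
Rel: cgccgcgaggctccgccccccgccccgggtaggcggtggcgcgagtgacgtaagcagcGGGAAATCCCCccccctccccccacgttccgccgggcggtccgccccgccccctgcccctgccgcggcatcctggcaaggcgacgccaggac
Icam1: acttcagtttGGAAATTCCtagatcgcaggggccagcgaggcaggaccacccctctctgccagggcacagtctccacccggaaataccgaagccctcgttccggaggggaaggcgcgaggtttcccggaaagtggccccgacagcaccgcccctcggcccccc
Cyld: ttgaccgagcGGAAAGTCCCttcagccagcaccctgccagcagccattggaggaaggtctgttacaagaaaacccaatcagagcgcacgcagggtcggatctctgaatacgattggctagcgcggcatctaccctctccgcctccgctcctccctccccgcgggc
The consensus match of Nfkbia began 29 bases before the start, and the other capitals in its stretch match GGAAANTCC only. Tnfaip3 held consensus matches at 125 and 12 bases before the start and a GGAAANTCC match between them. In Tnip1 the capitals are 3 overlapping matches to the consensus, the first at 58 bases before the start. Tnip3, whose RefSeq start lies inside the longer span of the gene in the count table, held a single match at 54 bases, and Rel a pair of overlapping ones at 92 and 91 bases. In the stretch shown, Nfkb2 held overlapping matches at 39 and 38 bases and another at 11 bases. Windows at later starts of Nfkb2, not shown, held matches to both motifs. Icam1 held GGAAANTCC and no consensus match.

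Of the 5 genes for DNA-binding subunits, 4 fell and Rela was not called. Nfkb1 (ENSMUSG00000028163; chromosome 3, 135584655 to 135691547 in mm10) encodes p105, the precursor of p50. Its level was 258, 263 and 247 CPM in the vehicle libraries and 228, 239 and 233 CPM in the uridine libraries. All 3 uridine libraries lay below all 3 vehicle libraries, and the fall of 8.80% was among the smallest of those called (log2 -0.13 ± 0.028, adjusted p = 1.8e-04). That call was lost when the trend of counts with gene length was removed (-0.07, adjusted p = 0.062). Nfkb2 (ENSMUSG00000025225; chromosome 19, 46304737 to 46312090) encodes p100, the precursor of p52. It stood at 43.3, 47.0 and 42.0 CPM with vehicle and at 33.3, 37.0 and 36.9 CPM with uridine. The groups did not overlap (-0.30 ± 0.066, adjusted p = 3.0e-04). The end of Nfkb2 overlaps that of Psd on the opposite strand, which had 10.1 CPM with vehicle and was not called.

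Rel (ENSMUSG00000020275; chromosome 11, 23736847 to 23770970), the gene of c-Rel, stood at 44.3, 43.7 and 43.8 CPM with vehicle and 35.4, 35.9 and 33.7 CPM with uridine. The vehicle libraries had an SD of 0.351 CPM, and the difference was several times the spread of either group (-0.33 ± 0.064, adjusted p = 6.9e-05). Relb (ENSMUSG00000002983; chromosome 7, 19606217 to 19629438), whose product pairs with p52 in the non-canonical branch, had the largest fall of the 5. Its level was 11.5, 10.3 and 9.91 CPM with vehicle and 6.65, 5.36 and 6.33 CPM with uridine. Relb changed by -0.79 ± 0.14 (adjusted p = 9.1e-06), a fall of 42.4%. Rela (ENSMUSG00000024927; chromosome 19, 5637483 to 5648130), which encodes the activating subunit p65, stood at 116, 113 and 118 CPM with vehicle and 105, 105 and 115 CPM with uridine. The third uridine library overlapped the vehicle group, and Rela was not called (-0.09 ± 0.039, adjusted p = 0.098). Without uridine replicate 3 it was called (-0.14, adjusted p = 0.019), and removing the length trend had the same outcome (-0.12, adjusted p = 0.029).

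The proportions of the subunit transcripts can be set side by side only per gene length, which the authors give in bases. Of the summed CPM per kb of the 5 genes, Rela made up 49.6% ± 1.41 with vehicle and 52.2% ± 1.28 with uridine (SD, n = 3), and Nfkb1 24.8% ± 0.646 and 25.3% ± 0.805. Both pairs of groups overlapped. Nfkb2 went from 15.6% ± 0.831 to 14.2% ± 0.574 and Rel from 6.86% ± 0.0619 to 6.15% ± 0.370, and Relb from 3.18% ± 0.234 to 2.06% ± 0.246. In these last cases the groups did not overlap, although the shares are bound to each other because they sum to 100%. With merged exon lengths, an alternative chosen after seeing the data, the vehicle shares of Rela, Nfkb1 and Nfkb2 were 48.8%, 27.6% and 12.5%, and Nfkb2, Rel and Relb again did not overlap between groups.

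**Figure D2:**
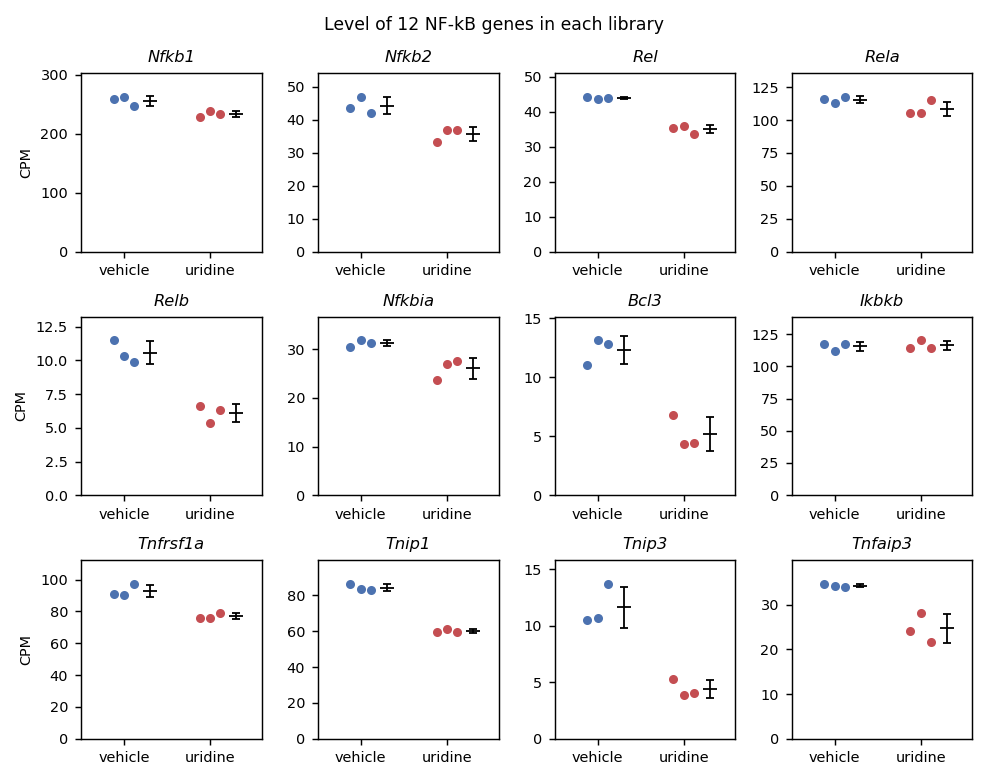
Level of 12 NF-kB genes in each library, in CPM (y axis, from 0), with each vehicle library (blue) and uridine library (red) as a point and the mean and SD of 3 libraries in black. Rela and Ikbkb overlap between groups, and the other 10 do not.

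Among the 6 genes of the IkB family 4 fell. Nfkbia (ENSMUSG00000021025; chromosome 12, 55489410 to 55492647), the gene of IkBα, which NF-kB induces to shut itself off, stood at 30.5, 31.9 and 31.3 CPM with vehicle and at 23.6, 27.0 and 27.5 CPM with uridine. The groups did not overlap and the fall was 16.6% (-0.26 ± 0.076, adjusted p = 0.0094), but the call rested on uridine replicate 1, without which it was -0.20 (adjusted p = 0.107). Nfkbib, the gene of IkBβ, was not called: it stood at 30.6 ± 0.856 and 31.8 ± 0.75 CPM (0.05 ± 0.072, 95% interval -0.09 to 0.20). It overlaps Sirt2 on the opposite strand, which had 52.3 CPM with vehicle and was not called. Nfkbie, the gene of IkBε, had all 3 uridine libraries (16.6, 19.5 and 16.3 CPM) below the vehicle libraries (19.6, 20.7 and 21.3 CPM). Its adjusted p was 0.076 (-0.23 ± 0.093) and was 0.027 without uridine replicate 2.

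The other 3 members act in the nucleus as cofactors that modulate which NF-kB targets are transcribed, and all 3 fell. Nfkbiz (IkBζ; ENSMUSG00000035356) stood at 22.9, 21.4 and 21.2 CPM with vehicle and at 19.4, 16.4 and 13.1 CPM with uridine. The uridine libraries were more spread out than the vehicle ones but did not reach them (-0.42 ± 0.099, adjusted p = 0.0012). Nfkbid (IkBNS; ENSMUSG00000036931) went from 26.0 ± 1.06 to 20.5 ± 2.05 CPM (SD, n = 3; -0.34 ± 0.085, adjusted p = 0.0020). Bcl3 (ENSMUSG00000053175; chromosome 7, 19808462 to 19822770), whose product binds p50 and p52 dimers, stood at 11.0, 13.1 and 12.8 CPM with vehicle and at 6.83, 4.34 and 4.40 CPM with uridine. Uridine replicate 1 was the highest of its group and still below every vehicle library. Bcl3 fell by 57.9%, and only 1.03% of all genes tested had a lower log2 estimate (-1.25 ± 0.15, adjusted p = 2.1e-10).

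Of the 5 IkB kinase genes and relatives only Ikbke fell. Chuk (IKKα) stood at 74.9 ± 1.80 and 75.4 ± 3.59 CPM, Ikbkb (IKKβ) at 115.5 ± 3.44 and 116.3 ± 3.52 CPM, and Ikbkg (NEMO, the regulatory subunit) at 69.1 ± 0.939 and 68.8 ± 2.07 CPM (SD, n = 3). The groups overlapped for all 3 of these genes. The 95% intervals of the log2 difference were -0.08 to 0.11 for Chuk, -0.06 to 0.09 for Ikbkb and -0.10 to 0.09 for Ikbkg. For Ikbkg the reads may not be its own alone: the gene overlaps G6pdx on the opposite strand, which had 159.2 CPM with vehicle and fell (-0.19, adjusted p = 9.8e-06), and the strand setting of the counting is not given. Tbk1, a related kinase that also activates interferon signalling, stood at 70.8 ± 2.69 and 71.1 ± 2.26 CPM (interval -0.09 to 0.10). Ikbke (ENSMUSG00000042349; chromosome 1, 131254343 to 131279606), the inducible partner of Tbk1, stood at 27.5, 28.2 and 29.4 CPM with vehicle and 22.9, 20.1 and 24.1 CPM with uridine. The groups did not overlap, and the fall was 21.4% (-0.35 ± 0.082, adjusted p = 9.4e-04). Whether the change of Ikbke differed from that of the other kinases was not tested.

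Above the IkB kinases, Map3k8 and Map3k7 fell, and Map3k14 and Tab2 were not called. Map3k8 (ENSMUSG00000024235), the gene of the kinase TPL2, which links p105 to ERK signalling, stood at 5.99, 6.12 and 5.84 CPM with vehicle and at 4.44, 3.59 and 2.85 CPM with uridine. The groups did not overlap, and the gene fell by 39.2% at a low level (-0.72 ± 0.19, adjusted p = 0.0029). Map3k7 (ENSMUSG00000028284), the gene of TAK1, changed by -0.11 ± 0.039, its level being 114.6 ± 2.78 with vehicle and 106.2 ± 3.95 CPM with uridine (adjusted p = 0.035). It was not called with library totals alone (adjusted p = 0.056), DESeq2's Wald test (0.095) or the length trend removed (0.085), nor when vehicle replicate 1 (0.157), vehicle replicate 3 (0.072) or uridine replicate 2 (0.246) was left out. Tab2, whose product ties TAK1 to ubiquitin chains, had the narrowest interval of the 36, -0.04 to 0.06, at 247.6 ± 3.47 and 249.4 ± 4.67 CPM. Map3k14, the gene of NIK, had uridine libraries (11.0, 10.9 and 11.7 CPM) below the vehicle ones (12.3, 13.4 and 13.2 CPM), but the estimate was uncertain (-0.21 ± 0.11, adjusted p = 0.21).

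Both TNF receptor genes fell by similar amounts. Tnfrsf1a (ENSMUSG00000030341; chromosome 6, 125349362 to 125362484), the receptor whose death domain starts canonical signalling, stood at 90.7, 90.2 and 97.5 CPM with vehicle and at 75.8, 75.8 and 79.0 CPM with uridine. The fall of 17.2% exceeded the spread of both groups (-0.27 ± 0.044, adjusted p = 1.3e-06). Tnfrsf1b (ENSMUSG00000028599; chromosome 4, 145213463 to 145246870), which signals through TRAF2 without a death domain, stood at 74.3, 75.8 and 71.5 CPM with vehicle and at 59.5, 62.2 and 58.9 CPM with uridine. Here too the groups did not overlap (-0.29 ± 0.049, adjusted p = 2.8e-06).

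The TRAF and cIAP genes, whose products form the ubiquitin ligase complex that holds NIK in check and feeds the TNF receptors, were mostly not called. Traf3 (ENSMUSG00000021277) fell by 9.42%, from 93.5 ± 5.63 to 84.7 ± 2.57 CPM (-0.14 ± 0.044, adjusted p = 0.015). It was the single called gene whose groups overlapped, vehicle replicate 2 and uridine replicate 2 both standing at 87.6 CPM. It was not called when vehicle replicate 3 (-0.10, adjusted p = 0.182) or uridine replicate 1 (0.079) was left out, with DESeq2's Wald test (0.058) and with the length trend removed (0.056). Traf2 stood at 38.6 ± 2.08 and 37.7 ± 0.988 CPM, Birc2 (cIAP1) at 54.8 ± 6.04 and 54.3 ± 2.23 CPM, and Birc3 (cIAP2) at 33.6 ± 0.578 and 31.4 ± 2.62 CPM (SD, n = 3). For these 3 genes the groups overlapped, with intervals of -0.17 to 0.10, -0.13 to 0.11 and -0.24 to 0.05. Without vehicle replicate 1, the highest library for Birc2, that gene stood at 0.08 and was still not called. Traf1, an inducible TRAF, was the least abundant of the 36, with 2.42, 2.53 and 3.06 CPM in vehicle and 1.93, 2.04 and 1.98 CPM in uridine libraries. The groups did not overlap, but at this depth the interval was wide (-0.95 to 0.10, adjusted p = 0.30).

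Of 7 negative regulators 5 fell. Tnip3 and Tnip1 had the smallest p-values of any gene on the list, along with Bcl3. Their products bind A20 and ubiquitin. Tnip1 (ENSMUSG00000020400; chromosome 11, 54910785 to 54962917) stood at 86.5, 83.4 and 82.7 CPM with vehicle and at 59.8, 61.4 and 59.4 CPM with uridine. The groups were far apart and each tight, with SDs of 2.02 and 1.05 CPM, and the fall was 28.5% (-0.48 ± 0.047, adjusted p = 2.1e-13). Tnip3 (ENSMUSG00000044162; chromosome 6, 65525313 to 65634040) stood at 10.5, 10.7 and 13.7 CPM with vehicle and at 5.31, 3.86 and 4.09 CPM with uridine. This was the largest fall of the 36, at 62.1% (-1.40 ± 0.15, adjusted p = 1.1e-11), and 0.816% of all genes tested had a lower estimate. Tnip2, the third gene of this small family, was not called: it stood at 35.1 ± 0.545 and 37.6 ± 2.45 CPM and had the highest log2 estimate of the 36 (0.10 ± 0.068, interval -0.04 to 0.24).

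Tnfaip3 (ENSMUSG00000019850; chromosome 10, 19000910 to 19015657) encodes A20, the ubiquitin-editing enzyme that ends TNF signalling. It stood at 34.8, 34.3 and 33.9 CPM with vehicle and at 24.2, 28.2 and 21.8 CPM with uridine. The vehicle libraries agreed closely and the uridine libraries were more scattered, all of them lower (-0.47 ± 0.078, adjusted p = 2.4e-06), a fall of 27.8%. Of the deubiquitinase genes, Cyld, whose product trims K63-linked and linear chains, was not called, at 59.3 ± 0.759 and 60.2 ± 2.63 CPM (interval -0.08 to 0.13). Otulin, specific for linear chains, fell by 12.8%, from 41.1 ± 2.57 to 35.8 ± 2.01 CPM (-0.20 ± 0.067, adjusted p = 0.030). Otulin was not called with DESeq2's Wald test (adjusted p = 0.075), nor when vehicle replicate 1 (-0.14, 0.214), uridine replicate 1 (0.075) or uridine replicate 3 (0.149) was left out. Otulin overlaps Ank on the opposite strand, which had 72.8 CPM with vehicle and was not called. Zc3h12a, the gene of the mRNA-degrading enzyme Regnase-1, stood at 27.3, 27.5 and 28.3 CPM with vehicle and at 22.6, 23.9 and 22.2 CPM with uridine. The groups did not overlap (-0.27 ± 0.080, adjusted p = 0.0092).

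The remaining genes are induced by NF-kB without a place in its core circuit. Icam1 (ENSMUSG00000037405; chromosome 9, 21015985 to 21028817), the adhesion ligand of leukocyte integrins, stood at 19.6, 19.5 and 19.5 CPM with vehicle and at 14.4, 14.4 and 14.0 CPM with uridine. Both groups were tight, and the fall was 27.1% (-0.46 ± 0.096, adjusted p = 1.9e-04). Tnfaip2, first found as a TNF-induced transcript, stood at 98.3, 97.9 and 98.7 CPM with vehicle and at 92.1, 91.0 and 90.9 CPM with uridine. The libraries did not overlap, but the difference of 7.09% was not called (-0.11 ± 0.041, adjusted p = 0.060).

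**Figure D3:**
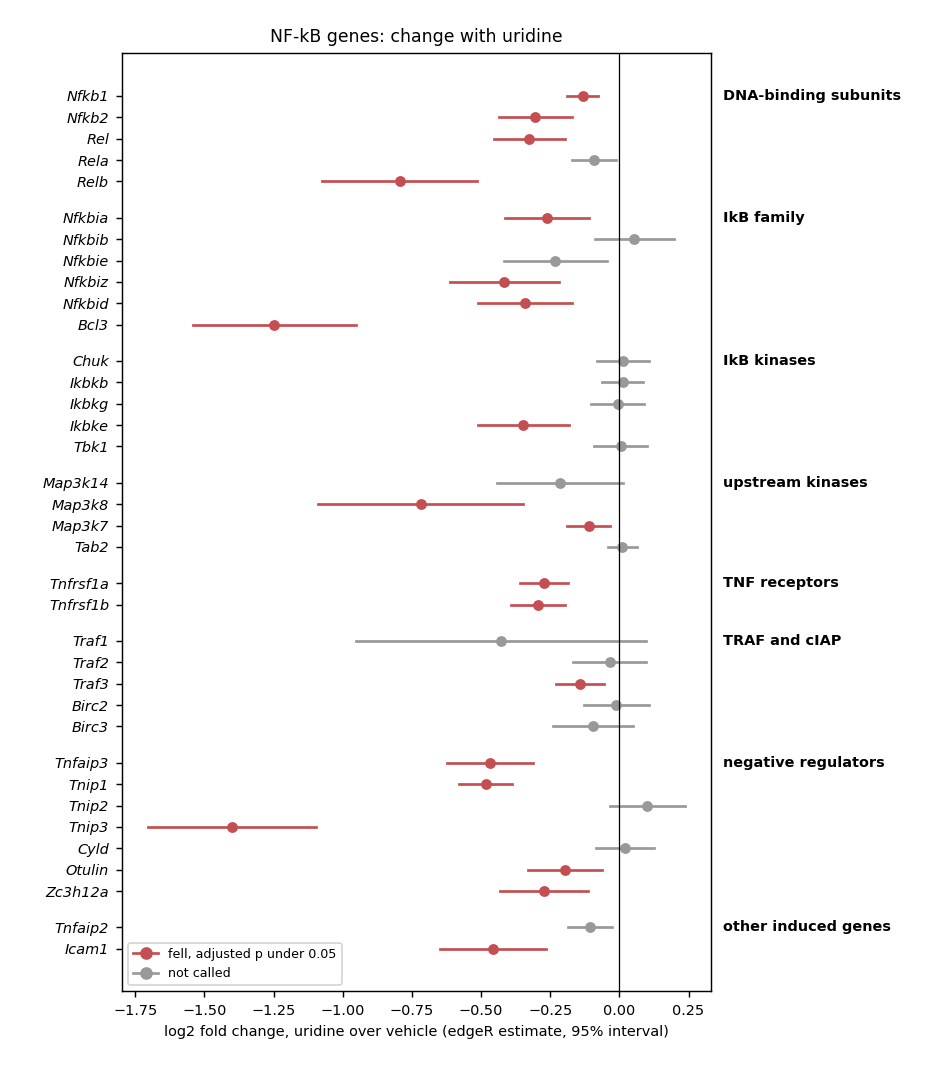
Log2 fold change of the 36 genes (x axis, uridine over vehicle, edgeR estimate with its 95% interval) in blocks by role (y axis), red where the gene fell and grey where it was not called. Estimates of Chuk, Ikbkb, Ikbkg, Tbk1 and Tab2 lie within 0.02 of 0, and Bcl3 and Tnip3 lie below -1.

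For 19 of the 20 genes that fell, all 3 uridine libraries lay below all vehicle libraries. The falls were called from these same libraries, so this describes them and adds no support. Levels were not even across the uridine libraries. The lowest uridine library was replicate 3 for 17 of the 36 genes, replicate 2 for 10 and replicate 1 for 9. Over all genes tested these shares were 33.1%, 32.4% and 34.5%. The coefficient of variation of CPM over 3 libraries had a median of 2.98% with vehicle and 3.98% with uridine, and it was higher with uridine for 24 of the 36 genes. It was highest with uridine for Bcl3 (27.3%), Map3k8 (21.8%) and Nfkbiz (19.5%). It was not computed over all genes tested. Counting error weighs more at lower counts, and its part in this spread was not tested. For Bcl3 replicate 1 stood apart as the high one, and for Nfkbiz and Map3k8 replicate 3 was the low one. Without uridine replicate 1, 17 of the 36 genes fell, and without uridine replicate 3, 20 did.

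**Figure D4:**
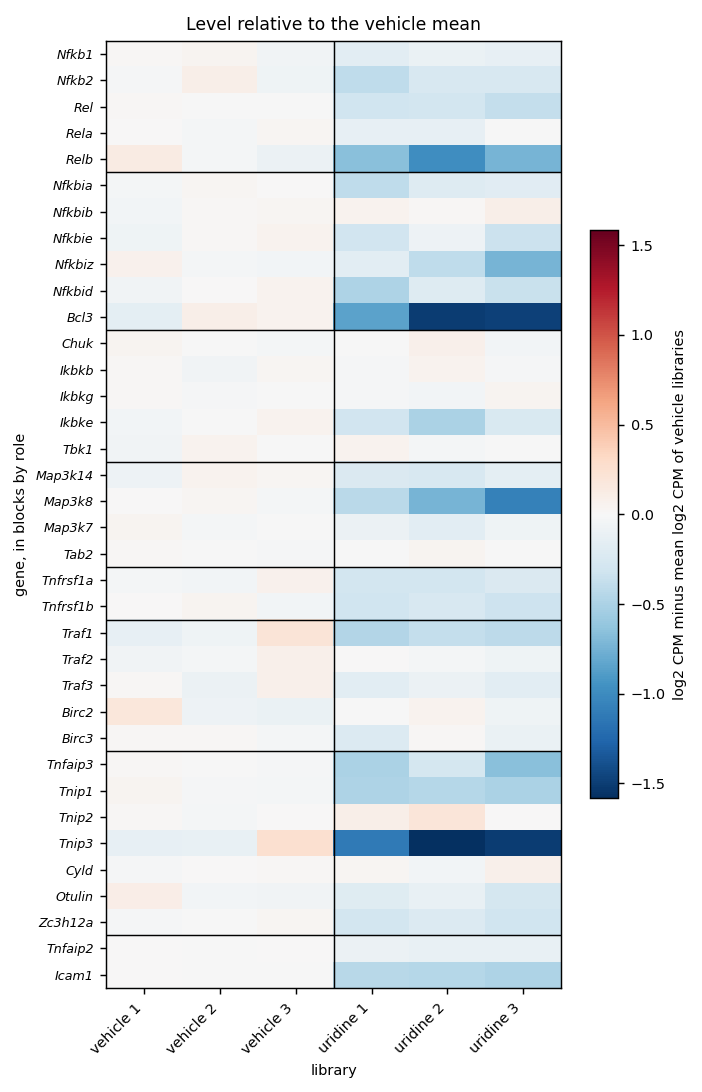
Level of each of the 36 genes (rows, in blocks by role) in each library (columns), as log2 CPM minus the gene's mean over the vehicle libraries. Blue marks lower levels, and the 3 uridine columns are bluest for Tnip3, Bcl3, Relb and Map3k8 and near white for Chuk, Ikbkb, Ikbkg, Tbk1, Tab2 and Cyld.

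Per kb of gene length the 36 genes spanned a range of 140.5-fold in vehicle libraries. Gene length here is the authors' value, which equals the merged length of all annotated exons in GENCODE vM21 for 34 of the 36 genes, Rela and Nfkb2 being the exceptions. It therefore counts exons that these cells may not use. On the deposited lengths Rela stood at 42.5 ± 0.946 CPM per kb, Tab2 at 40.4 ± 0.566 and Tnfrsf1a at 35.8 ± 1.56, without overlap. The order of Rela and Tab2 rests on the deposited length of Rela, 2716 bases. With its merged exon length of 3072 bases Rela stood at 37.6 ± 0.836 CPM per kb, below Tab2 and overlapping Tnfrsf1a, the range was 133.3-fold, and Nfkb2 moved from rank 14 to rank 18. Of the 35 neighbouring pairs in the order, 15 overlapped over libraries, among them Otulin with Tnip1, Nfkbia with Tnfrsf1b, and Tnfaip3 with Cyld. At the low end were Relb (2.72 ± 0.214), Map3k14 (1.98 ± 0.0942), Map3k8 (1.33 ± 0.0311), Tnip3 (1.07 ± 0.166) and Traf1 (0.303 ± 0.039). Of the 4 genes with falls of 1.5-fold or more, Relb, Map3k8 and Tnip3 were thus among the 5 lowest per length, and Bcl3 stood at rank 26. In uridine libraries Tab2 stood at 40.7 ± 0.761 and Rela at 39.9 ± 2.07 CPM per kb on the deposited lengths, and Bcl3 was at rank 31.

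**Figure D5:**
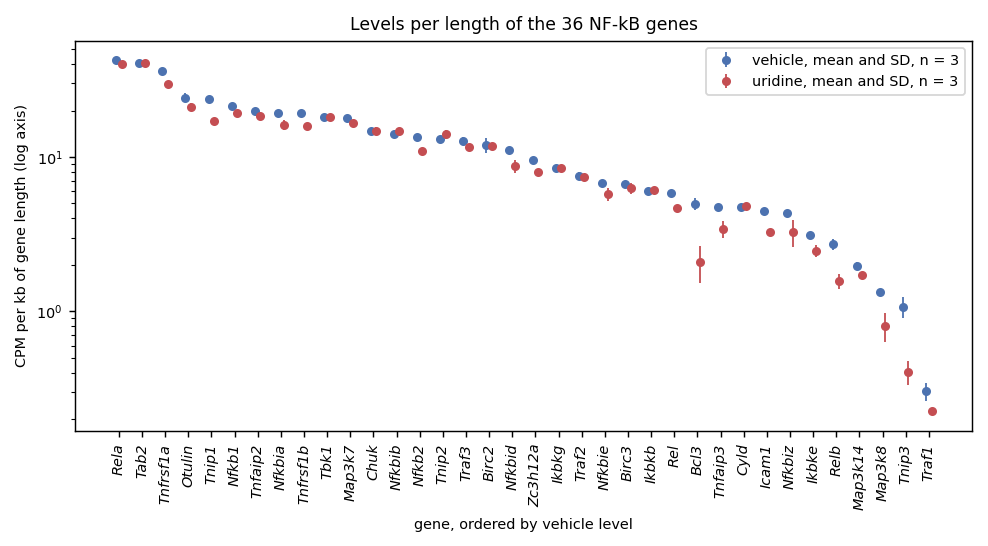
Level per kb of gene length (y axis, CPM per kb, log axis) of the 36 genes in order of their vehicle level (x axis), as mean and SD of 3 vehicle (blue) and 3 uridine (red) libraries. On the deposited lengths vehicle levels run from 42.5 for Rela to 0.303 for Traf1, and the colours separate most for Bcl3 and Tnip3.

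In a list of 98 other genes of the pathway, 86 were measured, of which 15 fell (17.4%) and 3 rose (3.49%), with a median of -0.07. Of all genes tested 10.1% fell and 7.18% rose. For ligands, 3 of 10 measured fell (30%) and 1 rose (10%). Ltb, the lymphotoxin β gene, went from 11.4 ± 1.59 to 4.24 ± 1.06 CPM (-1.44 ± 0.16, adjusted p = 1.2e-11) and Tnf from 9.87 ± 0.772 to 6.98 ± 1.23 CPM (-0.50 ± 0.14, adjusted p = 0.0074). Tnf was not called when vehicle replicate 3 (adjusted p = 0.062) or uridine replicate 3 (0.089) was left out. Il1a fell at a low level, its mean being 2.46 ± 0.387 with vehicle and 1.32 ± 0.298 CPM with uridine (adjusted p = 0.027). It was not called with DESeq2's Wald test (0.062), nor when vehicle replicate 2 (0.102) or 3 (0.101) or uridine replicate 1 (0.056) or 2 (0.137) was left out. Tnfsf14, the gene of the ligand LIGHT, rose by 0.17 ± 0.058 (adjusted p = 0.026). Leaving out vehicle replicate 1 (adjusted p = 0.134) or 2 (0.066) or uridine replicate 1 (0.204) ended the call, as did DESeq2's Wald test (0.071) and removing the length trend (0.116).

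For receptors, 2 of 17 measured fell (11.8%), close to the 10.1% of all genes tested. Il1r1, the signalling receptor of interleukin-1, stood at 69.7, 65.7 and 64.2 CPM with vehicle and at 49.1, 45.1 and 48.6 CPM with uridine, without overlap (-0.48 ± 0.055, adjusted p = 4.5e-11). Cd40, an activator of the non-canonical branch, fell from 0.849 ± 0.161 to 0.138 ± 0.0985 CPM (adjusted p = 0.0013). Its counts were 17, 16 and 12 with vehicle and 1, 2 and 4 with uridine, the uridine mean lying below the limit of detection. Of 37 adaptor and ubiquitin genes 5 fell (13.5%) and 1 rose (2.7%). Their median was 0.01, as over all genes tested. Card9, an adaptor of myeloid pattern receptors, changed by -0.50 ± 0.065 (adjusted p = 5.3e-09), the paracaspase gene Malt1 by -0.27 ± 0.062 (8.4e-04) and Irak3, which restrains Toll-like receptor signalling, by -0.24 ± 0.057 (0.0013). The member that rose was Ripk3, a kinase gene of necroptosis (0.12 ± 0.042, adjusted p = 0.036). Leaving out vehicle replicate 2 (adjusted p = 0.264) or 3 (0.075) or uridine replicate 1 (0.084) or 3 (0.134) ended the call, as did analysis with DESeq2's Wald test (0.106), with the length trend removed (0.163) or with no count filter (0.052).

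For induced targets 5 of 22 measured fell (22.7%) and 1 rose (4.55%), with a median of -0.19. The chemokine gene Cxcl10 went from 3.39 ± 0.244 to 0.445 ± 0.0757 CPM (-2.91 ± 0.34, adjusted p = 1.9e-10). With uridine it had only 9, 7 and 7 counts, not far above the limit of detection. The receptor gene Tlr2 went from 21.4 ± 0.558 to 12.5 ± 1.41 CPM (-0.77 ± 0.099, adjusted p = 3.6e-09). The inflammasome sensor gene Nlrp3 went from 5.06 ± 0.494 to 1.45 ± 0.317 CPM (-1.80 ± 0.24, adjusted p = 7.4e-09). Bcl2l1, the gene of the survival protein BCL-XL, stood at 70.7, 70.9 and 69.2 CPM with vehicle and at 80.7, 84.1 and 78.1 CPM with uridine. It rose by 0.20 ± 0.046 (adjusted p = 5.3e-04), opposite in direction to the 5 that fell. In the same libraries the monocyte and macrophage markers had a median log2 change of -1.35 and the neutrophil and granule markers of -0.85.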

How the data were processed

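Poly(A) RNA of 3 vehicle and 3 uridine libraries was sequenced as paired reads. The submitters' processing notes name HISAT2 2.0.5 and mm10. How reads were assigned to genes (program, annotation release, strand setting) is not given in the sources used here. The table that the authors deposited holds whole read counts with each gene's position and length, taken unchanged. Start and end equalled those of GENCODE vM21 for 35 of 36 members.

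Genes were filtered with filterByExpr, normalized with TMM and tested for uridine against vehicle with the quasi-likelihood test of edgeR (version 4.0.16, with limma 3.58.1 under R 4.3.3; robust estimation), with Benjamini-Hochberg adjustment over 14706 genes and a threshold of 0.05. Intervals are 95%. Gene levels are CPM scaled by TMM factors. The test was also run on simulated data with known changes. Chi-square per gene between libraries of a group was 2.27 to 2.50, and none was treated as a duplicate.

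The alternatives were DESeq2 size factors, library totals alone, DESeq2's Wald test (DESeq2 1.42.0), no count filter, a mean of at least 50 counts, the replicate number as a block, removal of the trend of counts with gene length (lowess, span 0.3), and each library left out in turn. The members, the pathway list and the marker lists were chosen with earlier results of these data known. All members could be named. Of each other pathway list up to 3 called genes with the smallest p in each direction were named, and of marker lists the most abundant and the called one with the smallest p, of which few are printed. Summed lists of lymphoid, erythroid, megakaryocyte, mast cell and stromal markers had uridine to vehicle ratios of 0.880, 1.38, 1.08, 1.05 and 0.992, with Hba-a1 at 0 in all libraries. A few abundant genes set these sums: by gene, 4 of 9 measured mast cell and basophil markers rose and 2 fell (median log2 change 0.54; Prss34 changed by 1.30 and Cpa3 by 0.08, the latter not called), and 2 of 5 stromal and endothelial markers rose (median 0.21). Of lymphoid markers 1 of 7 fell, of erythroid markers 1 of 3 rose, and of megakaryocyte markers 5 of 9 rose and 2 fell. Promoter windows are RefSeq's (GRCm38.p6).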

Additional observations from a re-analysis of the deposited data

How the results depend on the processing

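Of the 20 falls, 15 were called under every one of the 13 alternatives, and the other 5 (Nfkb1, Nfkbia, Map3k7, Traf3 and Otulin) were lost under at least 1, as given beside them. The number of the 36 genes that fell was 17 to 20 under the alternatives, and 0 rose under any of them. DESeq2's Wald test gave 17 falls, 696 rising genes over the whole table against 1056, and 1 rising gene among the other pathway genes against 3. The number of other pathway genes that rose was 1 with the length trend removed and ranged from 1 to 3 with a library left out. The median log2 change of the 36 was -0.25 with the length trend removed and -0.26 to -0.20 with a library left out. The cause of these shifts was not tested. No pairing by replicate number was seen: correlations of deviations between same-numbered libraries were -0.02, 0.03 and -0.01. Only the libraries numbered 2 correlated best with their own number. Vehicle replicate 1 correlated best with uridine replicate 3 (0.04), and vehicle replicate 3 with uridine replicate 1 (0.02). Such values cannot exclude shared mice or cultures, which the labels do not give. With the replicate block 20 of the 36 genes fell, with a median of -0.22. Signs changed only for genes that were not called. Ikbkg stood at 0.00230 with library totals alone and at 0.0239 with the length trend removed, and Tbk1 at -0.000105 with the latter, while Cd34 stood at 0.00392 and 0.0183 under those settings. With a library left out, log2 changes ranged from -0.0310 to 0.0136 for Ikbkg, -0.0199 to 0.0347 for Tbk1, -0.0275 to 0.0376 for Chuk, -0.0140 to 0.0249 for Ikbkb and -0.00396 to 0.0231 for Tab2. They ranged from -0.00923 to 0.0556 for Cyld, -0.0634 to 0.00999 for Traf2, -0.0624 to 0.0842 for Birc2 and -0.0175 to 0.0148 for Cd34. At 32 to 55 counts per library, depth limits what can be said of Traf1.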
